A study of Mus musculus with 10 samples.

Results

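Small leucine-rich proteoglycans (SLRPs) were followed as RNA in mammary normal fibroblasts (NFs) and in tumor cells of invasive lobular carcinoma (ILC). The members were the 9 genes Bgn, Dcn, Lum, Fmod, Ogn, Omd, Prelp, Aspn and Podn, chosen by symbol from the 55486 genes of the count table, and each symbol had 1 row. The 10 bulk RNA sequencing libraries came from 5 collagen and basement membrane extract gels kept for 7 days. NFs were from mammary glands of 8-week-old mTmG reporter mice, whose cells are red until Cre recombinase turns them green, and were divided by sorting into a subset lacking the surface peptidase CD26 (CD26-) and a subset bearing it (CD26+). Both subsets were mixed in equal parts, and CD26+ NFs alone had been given a Cre-expressing adenovirus to make them green, so the virus and the subset cannot be told apart. Tumor cells were lines 13-MCB-17 and 10-SJK-221 from mice in which the Wap promoter drives Cre in mammary epithelium to remove floxed alleles, Cdh1 among them. Gel 1 held NFs alone and gave 1 CD26- and 1 CD26+ library. Tumor cells alone were in gel 2 (13-MCB-17) and gel 3 (10-SJK-221). Co-cultures of both NF subsets with 13-MCB-17 (gel 4) or 10-SJK-221 (gel 5) gave a CD26-, a CD26+ and a tumor cell library each. Since NFs alone came from a single gel, co-culture and a peculiarity of that gel cannot be told apart. The labels do not say whether gels held cells of separate animals, so p-values measure the spread between these libraries only. NFs alone had 1 library per subset, so in fits of groups their spread is assumed to be like that of the other groups.

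SLRPs are secreted proteins of the connective tissue matrix built around a stretch of leucine-rich repeats, most of them carrying sugar chains. Decorin (Dcn) and biglycan (Bgn) are class I members with chondroitin or dermatan sulfate chains, and asporin (Aspn) is a class I member with a run of aspartate residues. Lumican (Lum), fibromodulin (Fmod), Prelp and osteomodulin (Omd) are class II members, of which Lum, Fmod and Omd can carry keratan sulfate, while osteoglycin (Ogn) belongs to class III and podocan (Podn) to a separate class. Many of them bind collagen and shape fibril assembly, and Dcn and Bgn also bind growth factors or cell surface receptors. In breast tissue, fibroblasts are the main known source of Dcn, Lum and Bgn.

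All 9 genes are annotated as protein coding (GRCm38), and 7 of them lie in 3 family clusters. Dcn (ENSMUSG00000019929, chromosome 10, 97479609 to 97518143, plus strand) lies 47 kb before Lum (ENSMUSG00000036446, chromosome 10, 97565128 to 97572703, plus strand), with the related genes Kera and Epyc after it. On chromosome 13, Ecm2, Aspn (ENSMUSG00000021388, 49544443 to 49567565, plus strand), Omd (ENSMUSG00000048368, 49582462 to 49592822, plus strand) and Ogn (ENSMUSG00000021390, 49608046 to 49624501, plus strand) follow each other at gaps of 11.7, 14.9 and 15.2 kb. These 3 members lie within the span of Cenpp on the other strand, and Aspn shares 0.297% of its exon bases with Cenpp exons. On chromosome 1, Prelp (ENSMUSG00000041577, 133910304 to 133921414, minus strand) lies between Optc and Fmod (ENSMUSG00000041559, 134037254 to 134048277, plus strand), and 9.68% of its exon bases overlap Gm15851. The use of strand in counting is not given in the sources used here, so reads in such overlaps cannot be assigned. Bgn (ENSMUSG00000031375, chromosome X, 73483602 to 73495933, plus strand) and Podn (ENSMUSG00000028600, chromosome 4, 108014791 to 108096445, minus strand) stand apart from other family genes.

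RefSeq promoter sequences (GRCm38.p6) were matched for 7 of the 9 genes. Shown are the 250 bases before the RefSeq start of the chromosome 13 neighbors Aspn (chr13:49544193-49544442), Omd (chr13:49582212-49582461) and Ogn (chr13:49607765-49608014), which were all lower in co-culture, and of Bgn (chrX:73483351-73483600), whose level moved least. All lie on the plus strand and run 5′ to 3′. Capitals mark matches on either strand to 4 short motifs, and overlapping matches run together. Searched were the letters TATAAA of the box that positions transcription start, the letters TGANTCA bound by AP-1 factors, the letters GGGCGG bound by Sp1 factors, and the letters GGAATG bound by TEAD factors.
Aspn: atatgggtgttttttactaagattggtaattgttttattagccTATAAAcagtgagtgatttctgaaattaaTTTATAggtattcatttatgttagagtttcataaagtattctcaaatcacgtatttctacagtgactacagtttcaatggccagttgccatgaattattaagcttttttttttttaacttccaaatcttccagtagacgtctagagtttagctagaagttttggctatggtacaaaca
Omd: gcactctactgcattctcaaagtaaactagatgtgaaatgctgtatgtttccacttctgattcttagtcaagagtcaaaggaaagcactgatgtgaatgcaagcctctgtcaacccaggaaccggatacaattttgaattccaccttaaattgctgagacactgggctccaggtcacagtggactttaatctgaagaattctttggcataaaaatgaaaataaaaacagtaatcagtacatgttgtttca
Ogn: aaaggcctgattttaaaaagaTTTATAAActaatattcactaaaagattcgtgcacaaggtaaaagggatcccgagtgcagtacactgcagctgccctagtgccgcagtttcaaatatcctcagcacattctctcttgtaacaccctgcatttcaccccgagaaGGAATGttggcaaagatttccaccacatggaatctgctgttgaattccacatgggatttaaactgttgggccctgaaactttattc
Bgn: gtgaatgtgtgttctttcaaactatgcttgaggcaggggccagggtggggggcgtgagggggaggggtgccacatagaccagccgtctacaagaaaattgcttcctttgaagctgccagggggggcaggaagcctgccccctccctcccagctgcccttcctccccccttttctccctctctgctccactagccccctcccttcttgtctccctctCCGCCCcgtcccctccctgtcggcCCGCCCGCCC
The Aspn window held 2 TATAAA matches, and the Ogn window held 2 that overlap and 1 GGAATG match. The Bgn window held 3 GGGCGG matches, of which 2 overlap, and the Omd window held none of the 4 motifs. Over 32851 promoter windows of the same length, 12.4% held TATAAA, 6.75% TGANTCA, 32.7% GGGCGG and 12.6% GGAATG. The GC content was 30% for Aspn, 38.4% for Omd, 42% for Ogn and 64.4% for Bgn, with a median of 52.4% over all windows. Of the genes not shown, also lower in co-culture, Fmod had 51.2%, Prelp 55.6% and the 2 windows of Podn 78% and 64%, and the first Podn window held 2 GGGCGG matches. These matches describe the letters only.

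Libraries held 14142334 to 18408940 counts, so that 3 counts, the most that an observed 0 allows, corresponded to 0.163 to 0.212 CPM (counts scaled to a library total of 1000000). This limit covers counting error only. The labels were checked against marker genes that hold no SLRP. The 10 fibroblast markers summed to between 27483 and 88878 CPM in NF libraries and to between 872 and 2796 CPM in tumor libraries, where 0 to 3 of the 10 were at 0. The 11 epithelial markers summed to between 4259 and 5602 CPM in tumor libraries, to 0.931 and 1.12 CPM in NFs alone (7 and 8 of 11 at 0) and to between 121 and 328 CPM in co-cultured NFs (none of 11 at 0).

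SLRP transcripts were abundant in NFs and nearly absent from tumor cells. The 9 genes together took 1.77 and 1.32% of all counts in CD26- and CD26+ NFs alone, 1.62 and 1.15% in gel 4, and 1.65 and 1.26% in gel 5. In tumor cells they summed to 0.978 and 2.23 CPM alone and to 32.5 and 49.0 CPM in co-culture. Bgn alone made up 69.6 to 84.9% of the SLRP counts of NFs. Scaled to exon length (CPM per kb of exon), the order of levels was Bgn, Dcn and Lum in each of the 6 NF libraries, and the other 6 genes followed.

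**Figure D1:**
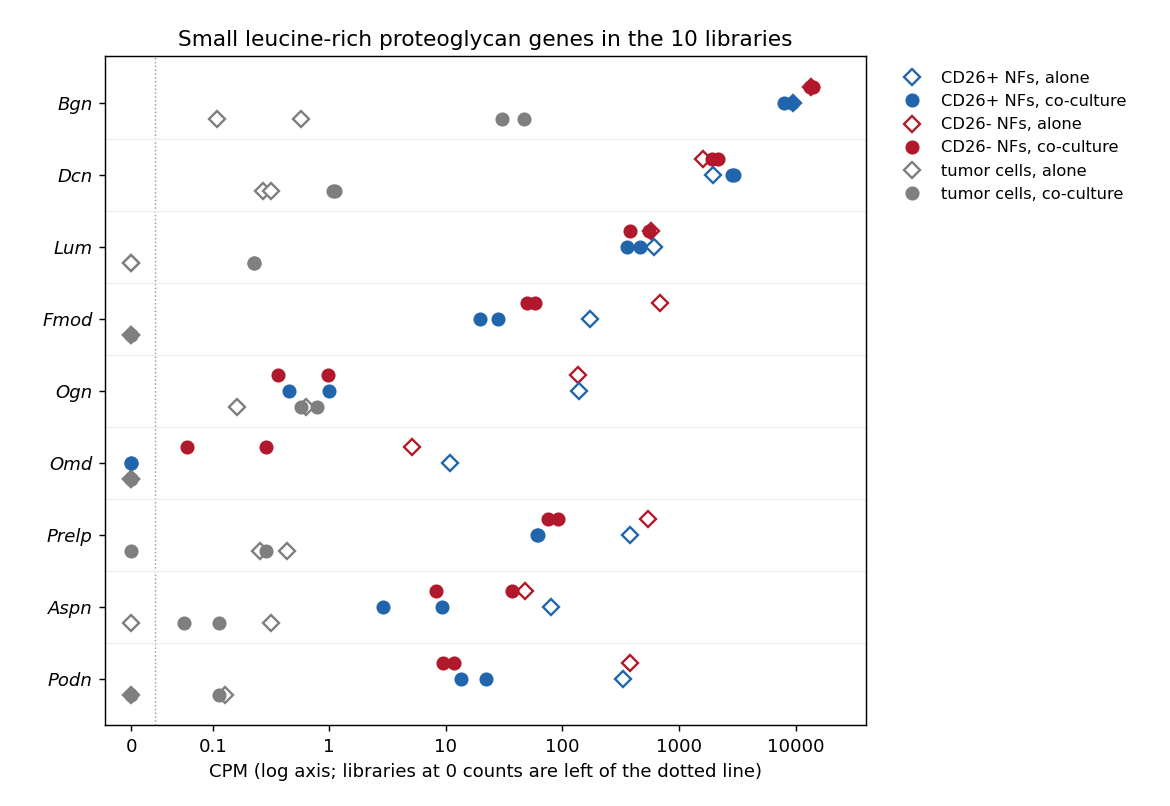
CPM of the 9 genes in each of the 10 libraries on a log axis, with libraries at 0 counts left of the dotted line. Diamonds are cultures of 1 cell type and circles are co-cultures. Bgn lay between 8014 and 14044 CPM in NFs, whereas Ogn stood at 137 and 138 CPM in NFs alone and under 1 CPM in every other library.

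Without co-culture, all 9 genes were higher in NFs than in tumor cells (edgeR quasi-likelihood test with Benjamini-Hochberg adjustment over all genes, adjusted p from 3.02e-07 to 8.90e-04), in a comparison where 55.5% of 17048 genes were called. Mean levels were 11615 CPM in NFs and 0.341 CPM in tumor cells for Bgn, and 1782 and 0.295 CPM for Dcn. Lum, Fmod and Omd had 0 counts in both tumor libraries and were at least 3352-fold, 2431-fold and 45.3-fold higher in NFs, taking 3 counts per library as the floor. Prelp had 8 and 4 counts in tumor cells and Ogn 3 and 10, and NFs exceeded these levels 1337-fold and 343-fold. Podn, with 0 and 2 counts in tumor cells, was 5561-fold higher by the ratio of means (95% counting interval 1678 to 50076), and Aspn, with 0 and 5 counts, 400.1-fold (183 to 1319). By DESeq2, Omd did not pass (adjusted p = 0.0831). The ranges of NFs and tumor cells did not overlap for any of the 9, but the share of all genes without overlap is not given.

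In co-culture, 7 of 9 genes were higher in NFs than in tumor cells, where 51.8% of 17048 genes were called. Dcn was 2228-fold, Lum 1934-fold, Prelp 506-fold and Bgn 291-fold higher by the ratio of means, and Fmod, with 0 counts in both tumor libraries, was at least 228-fold higher. Ogn did not pass. It had 6, 7, 17 and 14 counts in the 4 co-cultured NF libraries and 14 and 10 counts in the tumor libraries, a log2 difference of 0.23 (SE 0.54, 95% CI -1.01 to 1.46, adjusted p = 0.75). Omd had at most 5 counts in any co-cultured library, and no fold is given. Podn, with 2 counts in tumor cells in all, was 249-fold higher in NFs (95% counting interval 67.6 to 2024, adjusted p = 1.77e-05). Aspn, with 3 counts in all, was 169.5-fold higher (60.5 to 861, adjusted p = 0.00162), but without gel 5 its adjusted p was 0.0563.

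To ask how NFs respond to tumor cells, co-cultured NFs were compared with NFs alone. Across both subsets, 7 of 9 genes passed the test, 6 lower and 1 higher in co-culture. The background was high: 48.8% of 15013 genes were called, and the median log2 fold change was -2.62 for the members and 0.02 for all genes. Lower were Ogn, Omd and Aspn of the chromosome 13 cluster, Podn, and the class II genes Fmod and Prelp. Dcn was higher, and Bgn and Lum did not pass. Bulk libraries cannot tell fewer expressing cells from less RNA per cell.

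**Figure D2:**
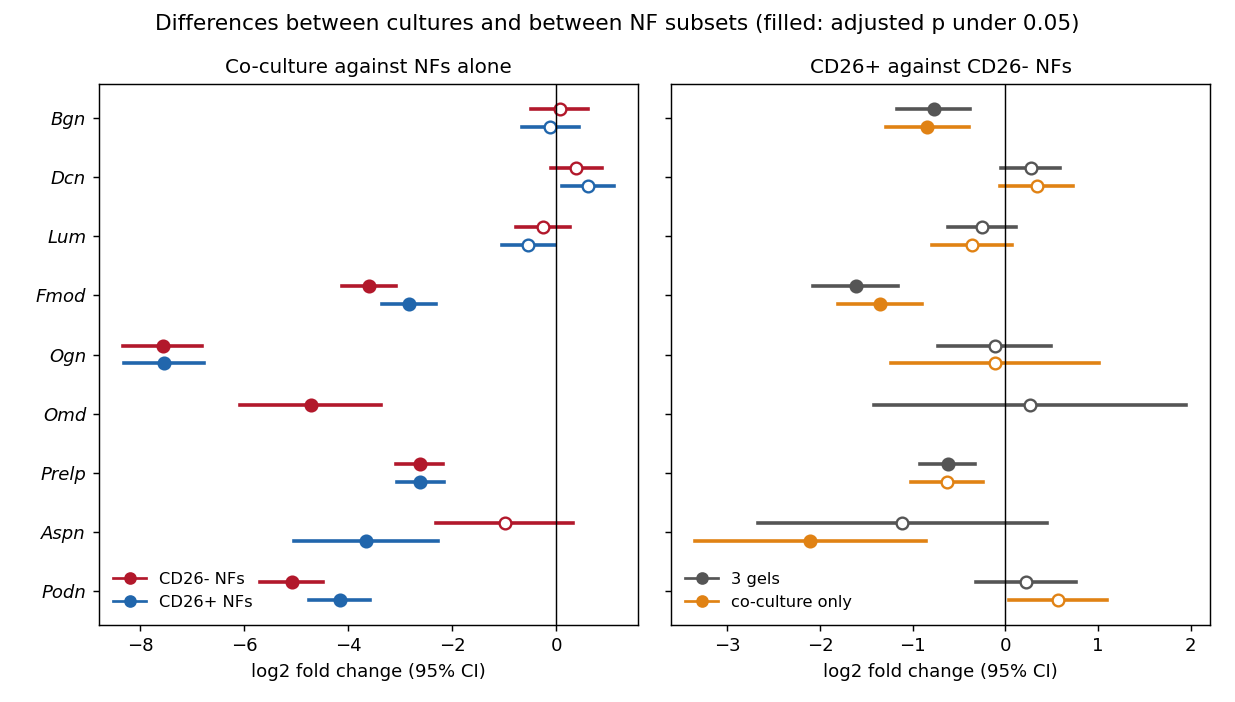
Log2 fold changes (points) with 95% confidence intervals (lines) of co-culture against NFs alone in each subset, left, and of CD26+ against CD26- NFs, right; filled points passed an adjusted p of 0.05. Omd is left out where CD26+ NFs had 0 counts. Ogn lies near -7.6 in both subsets, and Bgn lies beside 0 at left and below 0 at right.

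Ogn, a matrix protein also known as mimecan, was lower in both subsets. In gels 1, 4 and 5, CD26- NFs had 137, 0.364 and 0.978 CPM and CD26+ NFs had 138, 0.450 and 0.990 CPM. The 4 co-cultured libraries thus lay far below both libraries of NFs alone. Tumor libraries had 0.163 to 0.792 CPM, a range that held both gel 4 NF libraries, and both gel 5 NF libraries lay just above it. The log2 fold change was -7.56 (SE 0.26, adjusted p = 8.69e-08), and within the subsets it was -7.57 and -7.55. Its neighbor Omd, a keratan sulfate protein of mineralized tissue, had 5.09 and 10.9 CPM in CD26- and CD26+ NFs alone. In co-culture it had 1 and 5 counts in CD26- NFs and 0 in both CD26+ libraries, a level 29.2-fold lower in CD26- NFs (95% counting interval 12.7 to 80.6; 84.0-fold in gel 4 and 17.7-fold in gel 5) and at least 54.1-fold lower in CD26+ NFs. The adjusted p over both subsets was 9.06e-05.

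Podn, a collagen-binding protein, had 379.5 CPM in CD26- and 328 CPM in CD26+ NFs alone. Gel 4 had 9.39 and 13.6 CPM, and gel 5 had 11.9 and 22.1 CPM. The groups did not overlap, and the log2 fold change was -4.65 (SE 0.25, adjusted p = 1.04e-06). Fmod, which helps collagen fibrils mature, had 686 CPM in gel 1 and 49.2 and 58.4 CPM in gels 4 and 5 for CD26- NFs. In CD26+ NFs it had 174, 19.6 and 28.0 CPM. Both subsets were lower in co-culture without overlap, with a log2 fold change of -3.24 (SE 0.21, adjusted p = 2.66e-06). Prelp, a heparin-binding protein found at basement membranes, had 538 and 383 CPM in NFs alone against 75.0 and 61.8 CPM in gel 4 and 91.5 and 60.3 CPM in gel 5. It was lower by nearly the same amount in CD26- (log2 fold change -2.62) and CD26+ NFs (-2.61), and the adjusted p over both was 8.40e-07.

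Aspn, which binds collagen and TGF-beta, varied between the co-culture gels. Over gels 1, 4 and 5, CD26- NFs had 48.2, 8.18 and 37.3 CPM. CD26+ NFs had 79.1, 2.89 and 9.33 CPM. Gel 5 was thus higher than gel 4 in either subset, 4.56-fold and 3.23-fold. The log2 fold change over both subsets was -2.43 (SE 0.69, adjusted p = 0.0164), and it was -1.55 with an adjusted p of 0.0503 without gel 4. Within the CD26+ subset it was -3.66 (adjusted p = 0.000675, and 0.0533 by DESeq2) and within the CD26- subset -0.99 (adjusted p = 0.237).

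The 3 genes with the highest levels moved least. Dcn had 1621 CPM in CD26- NFs alone against 2157 and 1909 CPM in gels 4 and 5, and 1943 CPM in CD26+ NFs alone against 2935 and 2867 CPM. Every co-cultured library exceeded the library of the same subset in gel 1, and the log2 fold change was 0.50 (SE 0.15, adjusted p = 0.0237). Dropping gel 4 (adjusted p = 0.102) or gel 5 (0.0835) ended the call. Bgn had 13669 CPM in CD26- NFs alone against 13389 and 14044 CPM in co-culture, and 9561 CPM in CD26+ NFs alone against 8014 and 9237 CPM. The log2 fold change was -0.02 with a 95% CI of -0.44 to 0.39 (adjusted p = 0.923). Lum had 577 and 609 CPM in CD26- and CD26+ NFs alone, 553 and 463 CPM in gel 4, and 382 and 359 CPM in gel 5. Its log2 fold change was -0.39 (SE 0.17, adjusted p = 0.083), and without gel 4 it was -0.60 with an adjusted p of 0.0177.

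Within each subset, in a fit of 4 groups that left 2 residual degrees of freedom, 5 of 9 genes were lower in CD26- NFs (Ogn, Omd, Podn, Fmod and Prelp), with 30.8% of 16231 genes called, and 6 of 9 were lower in CD26+ NFs (these and Aspn), with 34.2% called. Bgn, Dcn and Lum passed in neither, with log2 fold changes of 0.07, 0.39 and -0.24 in CD26- and -0.11, 0.62 and -0.53 in CD26+ NFs. Dcn in CD26+ NFs had an adjusted p of 0.0530, and it passed by DESeq2 (0.0138) and with library totals (0.0475). Leaving out a gel required a fit of 6 groups that included the tumor libraries, in which 5 and 6 of 9 passed with all 10 libraries. With either co-culture gel left out, 2 of 9 passed in CD26- NFs (Ogn and Podn). In CD26+ NFs, 1 of 9 passed without gel 4 (Ogn) and 2 without gel 5 (Ogn and Podn).

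Markers of several cell types moved with culture. Of 10 fibroblast markers, 6 were lower and 1 (Thy1, adjusted p = 0.00651) higher in co-cultured NFs, with a median log2 fold change of -0.54, and their sum went from 81255 and 88878 CPM alone to between 27483 and 52853 CPM. Both immune markers tested (Cd68 and Csf1r) were higher. The 4 of that list summed to 5.46 and 10.0 CPM in gel 1 and to between 31.3 and 62.4 CPM in co-cultured NFs. In tumor libraries they summed to between 47.8 and 301 CPM, so the list does not set immune cells apart from tumor cells. Of 4 pericyte markers 1 was higher (Cspg4, 4.62) and the median was -0.10, the list summing to 19.7 and 32.2 CPM alone and 68.9 to 189 CPM in co-culture, and within CD26- NFs Rgs5 (-1.64) and Abcc9 (-1.44) were lower. Of 4 endothelial markers 2 were higher (Cdh5, 3.54, and Pecam1, 3.35) and Tek was lower (-2.48), with sums of 4.35 and 9.76 CPM alone and 8.06 to 24.4 CPM in co-culture. All 10 epithelial markers tested were higher. In co-cultured NFs, the median of the 11 epithelial markers was 1.98 to 5.48% of the tumor cell level in the same gel. The part of these cells in the lower SLRP levels was not tested.

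**Figure D3:**
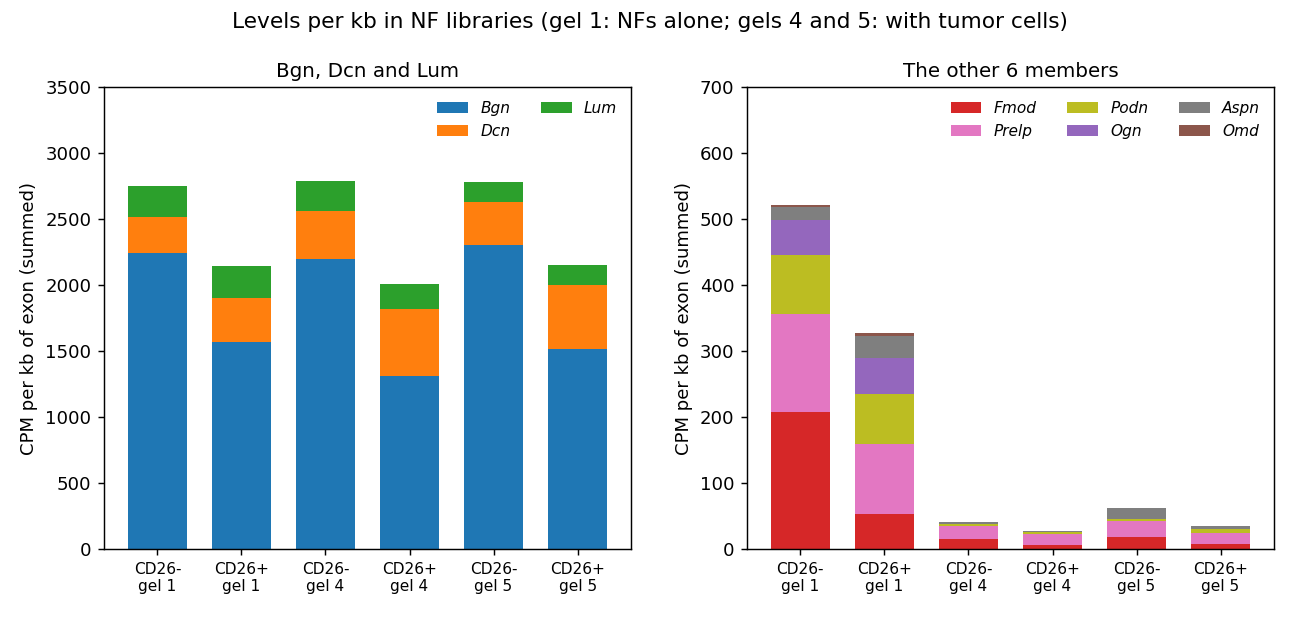
Summed CPM per kb of exon of Bgn, Dcn and Lum, left, and of the other 6 genes on a smaller scale, right, in the 6 NF libraries. The left bars keep their height between gel 1 and gels 4 and 5 within a subset, whereas the right bars shrink, and CD26- bars exceed CD26+ bars of the same gel.

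The make-up of the SLRP transcripts differed between cultures. Bgn and Dcn together took 86.6 and 87.0% of SLRP counts in CD26- and CD26+ NFs alone and 95.1 to 96.5% in co-culture. Per kb of exon, Dcn exceeded Lum 1.18-fold and 1.34-fold in gel 1, and 1.64-fold to 3.35-fold in gels 4 and 5. Dcn took 8.48 and 13.4% of the summed per-kb level in NFs alone, 13.0 and 24.7% in gel 4, and 11.5 and 22.5% in gel 5, the CD26+ library being the higher in each gel. These shares are descriptions of single libraries without a test.

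To compare the NF subsets, CD26+ were set against CD26- NFs over gels 1, 4 and 5. Of the 9 genes, 3 passed and all were lower in CD26+ NFs, where 7.53% of 15013 genes were called. Of these, Fmod was lowest relative to CD26- NFs, at 0.254, 0.398 and 0.480 times their CPM in gels 1, 4 and 5, with a log2 fold change of -1.62 (SE 0.21, adjusted p = 0.00415). Bgn stood at 0.699, 0.599 and 0.658 times the CD26- level, with a log2 fold change of -0.77 (SE 0.18, adjusted p = 0.0319). Every CD26+ library of Bgn was below every CD26- library. Prelp stood at 0.713, 0.824 and 0.659 times the CD26- level, with a log2 fold change of -0.62 (SE 0.13, adjusted p = 0.0265). Markers moved with the subset too: over 3 gels, 3 of 10 fibroblast markers were lower in CD26+ NFs (median log2 fold change -0.62), and 1 of 10 epithelial (Cldn3, 2.07; median 0.75), 1 of 4 endothelial (Kdr) and 1 of 4 pericyte markers (Kcnj8, 2.09) were higher. Their part in the lower SLRP levels was not tested. Fmod kept its call without any 1 gel, whereas Bgn lost it without gel 1 (adjusted p = 0.0523), gel 4 (0.205) or gel 5 (0.285), and Prelp without gel 1 (0.0575) or gel 5 (0.318).

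Dcn went the other way without passing. It was 1.20-fold, 1.36-fold and 1.502-fold higher in CD26+ NFs of gels 1, 4 and 5, with a log2 fold change of 0.28 (95% CI -0.04 to 0.59, adjusted p = 0.265). The ratio of Bgn to Dcn per kb of exon therefore separated the subsets: it was 8.07, 5.94 and 7.04 in CD26- NFs and 4.71, 2.61 and 3.08 in CD26+ NFs, without overlap. For Lum the log2 fold change was -0.25 (95% CI -0.62 to 0.12), for Ogn -0.12 (-0.72 to 0.49), for Podn 0.23 (-0.32 to 0.77), for Omd 0.26 (-1.42 to 1.95) and for Aspn -1.11 (-2.67 to 0.45), with adjusted p-values from 0.357 to 0.862.

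Within co-culture, 3 of 9 genes passed, again all lower in CD26+ NFs, where 6.01% of 16231 genes were called. These were Fmod (log2 fold change -1.35, adjusted p = 0.00196), Bgn (-0.84, 0.0301) and Aspn (-2.10, 0.0485). Aspn was lower in CD26+ NFs by 2.83-fold in gel 4 and 4.00-fold in gel 5, but 1.64-fold higher in gel 1. DESeq2 gave it an adjusted p of 0.445, and it did not pass with no filter on low counts (0.130) or with a filter of 1 CPM in 2 libraries (0.0756), with which Bgn did not pass either (0.0550). Prelp did not pass (log2 fold change -0.63, adjusted p = 0.0600, and 0.0284 by DESeq2), nor did Podn (0.57, 0.212), Dcn (0.34, 0.332), Lum (-0.36, 0.354) and Ogn (-0.11, 0.942). Omd, with 6 counts in CD26- and 0 in CD26+ NFs, had an adjusted p of 0.144. When the gel, which paired the libraries, entered the model as a replicate block, 5 of 9 genes passed: the same 3, Prelp lower (adjusted p = 0.00725) and Podn higher in CD26+ NFs (log2 fold change 0.54, adjusted p = 0.0477). In the fit of 6 groups, 0 of 9 passed in edgeR with all 10 libraries (4 of 9 at an unadjusted p under 0.05), where 83 of all genes were called. Without gel 4 or without gel 5 in that fit, 0 of 9 passed (2 and 1 of 9 at an unadjusted p under 0.05), and 0 of all genes (1447 and 752). The log2 fold changes of Fmod, Bgn and Aspn stayed negative.

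Within co-culture, 6 of 10 fibroblast markers were also lower in CD26+ NFs, with a median log2 fold change of -0.83. The median of the 9 members was -0.63. Their sum was 46805 CPM in CD26- and 27483 CPM in CD26+ NFs of gel 4, and 52853 and 35339 CPM in gel 5. Epithelial markers summed to 121 and 180 CPM in gel 4 and to 149 and 328 CPM in gel 5, and 2 of 11 were higher in CD26+ NFs (Krt7, 1.014, and Cldn3, 2.04). Of 4 endothelial markers 2 were higher (Kdr, 2.02, and Tek, 3.11), and of 4 pericyte markers 1 was higher (Kcnj8, 2.54) and 1 lower (Cspg4, -1.46). Their part in the lower Fmod, Bgn and Aspn was not tested.

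The difference between subsets in the response to co-culture was tested as an interaction. In edgeR, 0 of 9 genes passed, where 0.376% of 16231 genes were called, and 4 of 9 (Fmod, Omd, Aspn and Podn) had an unadjusted p under 0.05. DESeq2 also called 0 of 9, with 2 at an unadjusted p under 0.05. Aspn had an interaction of -2.67 on the log2 scale (95% CI -4.66 to -0.68, adjusted p = 0.414), that is, a more negative value in CD26+ NFs. With gel as a replicate block it was -2.55 (adjusted p = 3.15e-12), in a fit that left 1 residual degree of freedom. For Prelp and Ogn the interaction was 0.01 (95% CI -0.66 to 0.68) and 0.02 (-1.37 to 1.41). It was -0.18 (-0.95 to 0.59) for Bgn, 0.23 (-0.46 to 0.91) for Dcn, -0.29 (-1.03 to 0.45) for Lum, 0.77 (0.01 to 1.53) for Fmod and 0.92 (0.07 to 1.77) for Podn, and for Omd, at 0 in co-cultured CD26+ NFs, the adjusted p was 0.356.

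To ask how tumor cells change with NFs, co-cultured tumor cells were compared with tumor cells alone, with the line in the model. Only Bgn, Dcn and Ogn had enough counts to be tested; Bgn and Dcn were higher in co-culture, where 22.3% of 13197 genes were called. Bgn had 2 counts (0.109 CPM) in 13-MCB-17 and 9 counts (0.573 CPM) in 10-SJK-221 cells alone, and 534 counts (30.2 CPM) and 818 counts (46.7 CPM) in the same lines co-cultured. Both lines moved up without overlap, with a log2 fold change of 6.84 (SE 0.30, adjusted p = 1.56e-05), the 8th largest increase of the genes tested. Dcn had 5 and 5 counts alone and 20 and 19 in co-culture, with a log2 fold change of 1.86 (SE 0.53, adjusted p = 0.0387, and 0.451 by DESeq2). Without the tumor library of gel 2 (0.0996) or gel 4 (0.0841) it did not pass. Ogn had 3 and 10 counts alone and 14 and 10 in co-culture (adjusted p = 0.441). Without the line in the model Bgn had an adjusted p of 0.0774 and Dcn of 0.164.

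**Figure D4:**
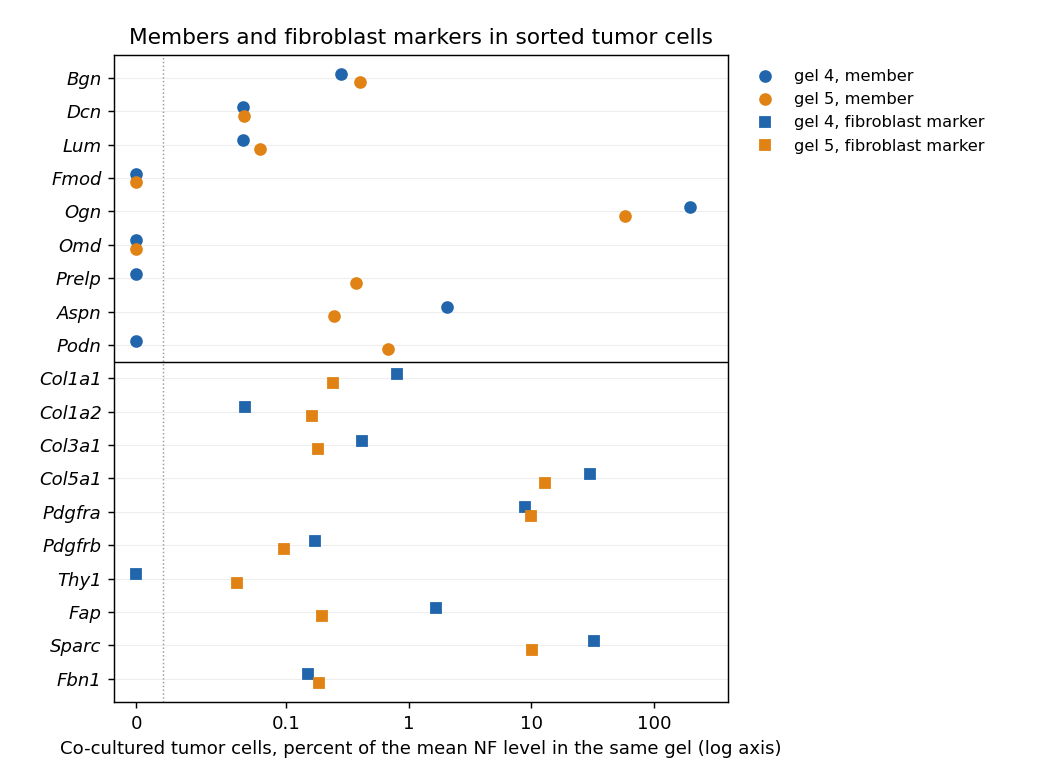
Level of each SLRP gene and fibroblast marker in co-cultured tumor cells, as percent of the mean of both NF libraries of the same gel, on a log axis with 0 left of the dotted line. Bgn (0.282 and 0.401%) lies among the collagens Col1a1, Col1a2 and Col3a1 (0.0461 to 0.802%), above Dcn and Lum.

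Most fibroblast markers moved with this result: of 8 tested, 6 were higher in co-cultured tumor cells and 0 lower. There the 10 markers had a median of 0.609% (gel 4) and 0.193% (gel 5) of the NF level in the same gel. The range was 0 to 32.4%, topped by Sparc, which had 1520 and 696 CPM in 13-MCB-17 and 10-SJK-221 cells alone. Col5a1 had 380 and 137 CPM in these cells alone. Pdgfra had 67.7 CPM alone and 49.9 CPM in co-culture for 13-MCB-17, and 35.6 and 43.5 CPM for 10-SJK-221. Col1a1, the main fibrillar collagen chain, went from 3.10 and 1.78 CPM alone to 89.1 and 28.1 CPM, which were 0.802 and 0.241% of NFs. Bgn reached 0.282 and 0.401%, Dcn 0.0444 and 0.0454%, and Lum, with 4 counts in either gel, 0.0445 and 0.0615%. Per kb of exon, the ratio of Bgn to Dcn was 25.6 and 41.2 in co-cultured tumor libraries against 2.61 to 8.07 in NF libraries. Fmod and Omd stayed at 0 counts, and Prelp, Aspn and Podn had 0 to 5. Of 11 epithelial markers tested, 4 were lower in co-cultured tumor cells, Elf3 (log2 fold change -1.07) and Cldn4 (-0.75) among them, and 0 higher. Of 2 immune markers, Cd68 was lower (-1.69) and Csf1r higher (1.61), and 1 of 3 endothelial markers was lower. The part of NFs carried over by the sort was not tested.

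Of 10 other family genes, Chad had 0 counts in every library, and Epyc, Optc, Nyx, Chadl and Omg reached at most 2.74 CPM. Kera (keratocan), between Lum and Epyc, had 12.7 and 20.4 CPM in NFs alone and 0 to 0.121 CPM elsewhere, with a log2 fold change in co-culture of -8.15 (adjusted p = 1.74e-06). Ecm2, before Aspn, fell from 12.1 and 7.16 CPM in NFs alone to between 0.636 and 2.70 CPM (log2 fold change -2.69, adjusted p = 0.000121). In all, 1 of 7 relatives tested was higher in co-cultured NFs and 3 were lower, beside 48.8% of all genes called. The higher one was Tsku (tsukushi), which had 60.0 and 71.2 CPM in gel 1 and 88.4 to 135 CPM in gels 4 and 5 (log2 fold change 0.74, adjusted p = 0.0018). In tumor libraries Tsku had 51.2 to 202 CPM and Podnl1 22.6 to 69.9 CPM. Without co-culture, 4 of 8 relatives tested were higher in NFs than in tumor cells (Kera, Ecm2, Epyc and Optc), beside 55.5% of all genes called. Tsku and Podnl1 were lower (log2 fold changes -1.12 and -1.33), and Tsku did not pass without gel 2 (adjusted p = 0.212).

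For the gene lists that follow, genes with the highest or lowest values are named among those with a mean of at least 1 CPM in the libraries compared. Counts stand beside 48.8% of all genes called in co-cultured NFs and 22.3% in co-cultured tumor cells. Between subsets the share of all genes called was 7.53% over 3 gels and 6.01% within co-culture. The list genes of at least 1 CPM named for co-cultured NFs also passed without gel 4 and without gel 5. Between subsets over 3 gels, no list gene passed without gel 5, where 17 of all genes were called (1669 at an unadjusted p under 0.05).

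The collagens that SLRPs bind were split in co-cultured NFs, with 5 higher and 6 lower of 14 tested and a median log2 fold change of -0.23. Without gel 4 these were 4 and 3, and without gel 5 they were 5 and 4. Col14a1, an organizer of fibrils, had the lowest value at -6.83 (SE 0.39) and Col11a1, a fibril nucleator, followed at -3.43 (SE 0.17), while Col5a3 was highest at 3.08 (SE 0.32) among those of at least 1 CPM (Col2a1, at 0.862 CPM, had 3.19). Col14a1 had 974 and 531 CPM in gel 1 and 4.09 to 10.7 CPM in gels 4 and 5. It was the 1 gene of this list that passed the interaction test of subset and culture (2.10, SE 0.33, adjusted p = 0.0144), the fall being larger in CD26- NFs. In the fit of 6 groups it did not pass (2.08, adjusted p = 0.493), nor did any of all genes there in edgeR (916 at an unadjusted p under 0.05), and without gel 4 or gel 5 the value was 2.22 and 1.97. Between subsets over 3 gels, 2 of 14 were lower in CD26+ NFs, Col12a1 (-1.02, adjusted p = 0.0102) and Col1a2 (-0.79, adjusted p = 0.0425). Within co-culture 6 of 14 were lower and 1 higher, but 0 passed in the fit of 6 groups. In tumor cells, 10 of 12 tested were higher in co-culture, led by Col3a1 (6.76, adjusted p = 1.56e-05), and 1 was lower. In the fit of 6 groups, 7 were higher and 0 lower with all libraries, and 6 to 8 were higher with 1 tumor library left out.

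Enzymes that build the sugar chains moved in both directions. Of 20 genes tested for chondroitin and dermatan sulfate synthesis, 7 were higher and 7 lower in co-cultured NFs (median log2 fold change 0.13; 3 higher and 7 lower without gel 5), the chain polymerase Chsy1 being lowest at -1.51 (SE 0.13) and the chondroitin sulfotransferase Chst11 highest at 1.39 (SE 0.17) among those of at least 1 CPM (Chst13, at 0.588 CPM, had 2.31). CD26+ NFs had less Chst11 (-0.65, adjusted p = 0.0314) and less of the dermatan sulfate epimerase Dse (-0.54, adjusted p = 0.0328) than CD26- NFs, and more B4galt7 (0.67, adjusted p = 0.0137) and Chpf (0.66, adjusted p = 0.0246), which build the linker and the chain. Of 6 keratan sulfate genes tested, 3 were higher and 2 lower in co-culture, the sulfotransferase Chst2 being lowest at -1.90 (SE 0.24) and Chst1, also a sulfotransferase, reaching 0.98 (SE 0.22), while Chst5 (2.46) and B3gnt7 (3.65) had means under 1 CPM. Within co-culture, 1 of 6 passed between subsets, Chst1, which was higher in CD26+ NFs (0.76, adjusted p = 0.0483), but not in the fit of 6 groups (adjusted p = 0.225).

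Of 15 proteases and enhancers that process or cut SLRPs, 6 were higher and 5 lower in co-cultured NFs (median log2 fold change -0.08). Mmp9 went from 12.9 and 18.6 CPM in NFs alone to between 3880 and 6332 CPM (log2 fold change 8.36, SE 0.26), and Mmp12 from 0.373 and 0.281 CPM to between 33.7 and 158 CPM. Adamts5, an aggrecanase, fell from 510 and 454 CPM to between 8.81 and 26.7 CPM (log2 fold change -5.04, SE 0.28), and Pcolce, the enhancer of procollagen processing, fell by 2.09 on the log2 scale. Between subsets over 3 gels, 3 of 15 passed, all higher in CD26+ NFs, with Tll2 (2.08) and Mmp12 (1.78, adjusted p = 0.00357) the highest. In co-cultured tumor cells, 8 of 13 passed, all higher, and Mmp2 (3.02, SE 0.23) and Bmp1 (1.60, SE 0.13), which removes propeptides from Bgn and procollagen, had the highest values of the list. In the fit of 6 groups, 3 of the list passed with all libraries, and 3, 2, 1 and 5 with the tumor library of gel 2, 3, 4 or 5 left out. Mmp2 passed in each of these fits, and Bmp1 did not pass with all libraries (adjusted p = 0.120).

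Of 17 tested ligands and receptors of SLRPs, 8 were higher and 1 lower in co-cultured NFs (median log2 fold change 0.59), a share near that of all genes called. Bmp2 had the highest value (5.42, SE 0.23), followed by Tgfb1 (2.99, SE 0.24), which Dcn and Bgn can bind, and the lower one was the toll-like receptor gene Tlr4 (-0.79, adjusted p = 0.0111). Between subsets over 3 gels, 4 were higher and 3 lower in CD26+ NFs, Bmp2 (2.30, adjusted p = 0.000221) and Kdr (2.11) at the top, and Tgfb3 (-0.87, adjusted p = 0.0404) and Cd44 (-0.77, adjusted p = 0.0132) at the bottom. In co-cultured tumor cells, 1 of 16 was higher (Igf1r, 0.37) and 5 were lower, Tlr2 being lowest at -0.99 (SE 0.10) among those of at least 1 CPM (Kdr, at 0.566 CPM, had -4.11). In the fit of 6 groups, 1 of the list (Tlr2) was lower and Igf1r did not pass (adjusted p = 0.405), and Tlr2 did not pass without gel 2 or gel 4.

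Among 9035 genes with a mean of at least 10 CPM in NFs, those with the pattern most like Dcn over the 6 NF libraries were Crtc2 (Pearson r = 0.998 of log2(CPM + 1)), Sh2b1 (0.997) and Prune1 (0.996). For Bgn they were Tfpi (0.991), Tpm2 (0.979) and Gcnt4 (0.972). Among the members, Ogn and Podn were most alike (r = 0.992). Dcn ran opposite to every other member, from r = -0.543 with Lum to -0.885 with Fmod, and at -0.778 with Bgn. These values describe 6 libraries from 3 gels that share gels and depth, and carry no test.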

How the data were processed

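The authors deposited 1 table of unnormalized read counts for every gene in 10 libraries. Per the labels, column-purified and DNase-treated RNA went into stranded mRNA libraries. The submitters' processing notes name HISAT2 2.2.1 and GRCm38; the counting program, its strand setting and the annotation are not given in the sources used here. Of the gene IDs, 99.53% were in GENCODE M21, and 99.35% had the same position there. The 1 line lacking a gene ID (0 counts) was left out.

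Libraries held 14142334 to 18408940 counts, and intervals and floors cover counting error only. CPM used library totals; levels per kb used the union of GENCODE M21 exons. Tests were edgeR's quasi-likelihood tests (version 4.0.16, R 4.3.3) after filterByExpr and TMM scaling, with p-values adjusted by Benjamini-Hochberg over all genes tested and a threshold of 0.05. The 6 NF libraries were fitted with additive terms for subset and culture, or as 4 groups; tumor cells were fitted with line and culture, and cell types with 6 groups over 10 libraries. Folds are ratios of mean CPM, and bounds against 0 counts used 3 counts per library. Counting intervals are exact binomial intervals of summed counts. The code was tested on simulated data with known changes. Libraries of a gel were sorted from the same culture, so the gel pairs them. Deviations of same-gel libraries from their group means correlated at 0.212, 0.147 and 0.084 (13490 genes, 2 pairs each). Replicates were not duplicates (chi-square per degree of freedom of 16.9 or more).

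Members and gene lists were chosen with earlier results of these data known. The rule named all 9 members in every comparison. Of the lists (other family genes, collagens, chondroitin and dermatan sulfate synthesis, keratan sulfate synthesis, proteases, ligands and receptors), up to 2 genes with the highest and 2 with the lowest log2 fold change past the threshold and at least 1 CPM on average were named. Markers were of fibroblasts, epithelial, endothelial, immune cells and pericytes. Kdr is on the receptor and the endothelial list, and 4 collagens are on the collagen and the fibroblast list. Alternatives were RLE scaling, library totals, no filter, a filter of 1 CPM in 2 libraries, DESeq2 1.42.0, an added absolute log2 fold change above 2, gel as block, no line term and leaving out gels. Leaving out a gel in fits of 4 groups left no residual degrees of freedom, so the fit of 6 groups was used, chosen after seeing the data. The genes most like Lum and the full genotype of the tumor cell lines are not reported here.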

Additional observations from a re-analysis of the deposited data

How the results depend on the processing

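Of the members' log2 fold changes recomputed under the alternatives, 619 kept direction and side of the threshold, 51 lost the threshold, 10 gained it and 17 changed sign. With an absolute log2 fold change above 2 added, 0 members passed between subsets over 3 gels, 1 within co-culture and 1 in tumor cells. Within co-culture, 1 member passed with a filter of 1 CPM in 2 libraries (Fmod), and 0 in the added fit of 6 groups over all 10 libraries. With the replicate block of gel, 5 members passed within co-culture (over 6 or over 4 libraries) and 1 in the interaction; the paired fits changed no other count of members. In tumor cells, 1 member passed with DESeq2, and without the line term 0 passed in edgeR (2 at an unadjusted p under 0.05). Leaving out 1 gel gave 1 to 2 members between subsets over 3 gels, 0 to 0 within co-culture, 2 to 2 in CD26- NFs, 1 to 2 in CD26+ NFs and 1 to 2 in tumor cells; in fits where 1 library remained in a group, it is assumed to vary like the other groups.

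Values whose sign changed did not pass under either setting. The log2 fold change of Ogn became 0.0273 between subsets over 3 gels and 0.0654 within co-culture with library totals, and Omd became -2.23 over 3 gels with DESeq2. In the interaction, Prelp became -0.0138 (RLE), -0.0278 (no filter), -0.0002 (filter of 1 CPM), -0.0139 (DESeq2) and -0.0098 (6 groups), and Ogn -0.0133 (no filter). With 1 gel left out, the ranges were -0.0093 (without gel 5) to 0.576 for Podn over 3 gels, -0.155 to 0.149 (without gel 5) for Ogn within co-culture, -0.134 to 0.0762 (without gel 4) for Bgn over both subsets, -0.0346 (without gel 5) to 0.148 for Bgn in CD26- NFs, -0.268 to 0.01 (without gel 4) for Bgn in CD26+ NFs, -0.0435 (without gel 4) to 0.283 for Ogn and -0.162 (without gel 4) to 0.201 for Prelp in the interaction, and -0.804 (without gel 5) to 1.04 for Ogn between co-cultured cell types.

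Library totals moved the median of all genes from 0.00 to 0.16 between subsets over 3 gels, from 0.01 to 0.18 within co-culture, from 0.02 to -0.10 between cell types alone and from 0.06 to -0.13 in co-culture; Podn then passed within co-culture (adjusted p = 0.0471). The share of calls that were higher moved from 52.2 to 81.0% over 3 gels, from 57.9 to 80.0% within co-culture and from 53.3 to 43.3% between co-cultured cell types. Over all genes, the block raised calls within co-culture from 975 to 2221 or 2407 and in the interaction from 61 to 395, DESeq2 lowered those in tumor cells from 2942 to 1574 and raised the interaction to 97, and without gel 5 the calls over 3 gels fell from 1130 to 17. No filter gave 603 within co-culture and 18 in the interaction, which had 38 with a filter of 1 CPM and 123 with library totals. The fit of 6 groups, with no library left out, gave 83 calls within co-culture, 0 in the interaction (916 at an unadjusted p under 0.05), 3361 in CD26- NFs (from 4997), 3840 in CD26+ NFs (from 5556) and 597 in tumor cells. In that fit, leaving out gel 4 or gel 5 left 1 library in each co-culture group. Far fewer genes were then called within co-culture, in either subset and between co-cultured cell types than with all libraries. In tumor cells, leaving out a tumor library also gave far fewer calls than the main fit. A log2 criterion of 2 left 192, 223, 2047, 1857, 2161, 418, 4899 and 3999 calls over 3 gels, within co-culture, over both subsets, in CD26- NFs, in CD26+ NFs, in tumor cells and between cell types alone and in co-culture. At this depth Omd and Ogn in co-culture, and in tumor cells every member but Bgn and Dcn, rest on at most 17 counts per library.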
